A study of Mus musculus with 9 samples.

Results

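Genes of T lymphocytes and natural killer (NK) cells were followed across 3 subpopulations of mouse activated hepatic stellate cells (aHSCs), the contractile, matrix-producing cells of hepatic scars. The 10 genes listed were Cd3e, Cd3d, Cd3g, Cd2, Lck, Ccl5, Nkg7, Gzma, Gzmb and Klrd1, out of 30869 distinct gene symbols in the tables. They were chosen because earlier values from these arrays had shown them higher in the cells from injured liver than in the cultured cells, so their levels and differences are given as a description, without a test. Probes were found by symbol, and 10 probes covered 9 of the 10 genes, with a pair of probes for Cd3e. Gzma was matched to no probe and was not analysed here. Of the 10 probes, 9 probes for 8 genes passed the filter on low values, which asked for a detection p-value under 0.05 on at least 3 of the 9 arrays, and the Gzmb probe did not.

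RNA of each group was hybridised to 3 Illumina bead arrays (MouseWG-6 v2.0). The labels give all animals as male C57/Bl6 mice of genotype WT1GFP/+, although the study's methods state that both sexes served for in vitro work, so the sex behind the cultured arrays is not settled. In this genotype, green fluorescent protein (GFP) is knocked into 1 allele of Wt1 and reports its activity, so every group carried a single intact allele. WT1-high cells (GFP high, replicates 1, 8 and 29) and WT1-intermediate cells (GFP low, replicates 1, 8 and 30) were sorted by flow cytometry from the buoyant stellate cell fraction of livers chronically injured with intraperitoneal carbon tetrachloride. WT1-negative cells (GFP negative, replicates 3, 11 and 14) were quiescent stellate cells from uninjured livers, activated for 7 days on plastic and then sorted. Injury of the liver and culture of the cells both went with the WT1 status in every comparison to the WT1-negative group. The effects of injury, culture and WT1 status cannot be told apart. GFP marks Wt1 activity, and the study found the GFP-high and GFP-intermediate populations in injured WT1GFP/+ animals and not in injured wild-type animals. No separate gate against leukocytes is described in the sources used here, and whether leukocytes entered the GFP gates was not tested. The arrays were of mixed RNA from many cells, in which fewer cells of a type and less RNA per cell cannot be told apart.

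The T cell receptor is carried to the cell surface with the CD3 chains, which bear the signalling motifs that the receptor itself lacks. The kinase Lck phosphorylates those motifs and so starts the signalling cascade. CD2 is an adhesion and costimulatory molecule of T and NK cells. Klrd1 encodes CD94, which pairs with NKG2 chains to read a non-classical MHC molecule, and Nkg7 encodes a protein of the membrane of cytotoxic granules. Granzymes A and B are the proteases of these granules, and Ccl5 is a chemokine that activated T and NK cells store and secrete. The liver is rich in NK cells, NKT cells and CD8 T cells.

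The probe sequences below show what was measured for 2 CD3 chains and for CD94, the receptor subunit of the list, each read from the deposited annotation. The pair of Cd3e probes overlapped end to end, and the last line gives in capitals the 17 bases they shared, so they are not independent measurements of the transcript.
Cd3d: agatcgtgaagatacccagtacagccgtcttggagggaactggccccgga
Cd3g: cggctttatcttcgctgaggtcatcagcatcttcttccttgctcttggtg
Klrd1: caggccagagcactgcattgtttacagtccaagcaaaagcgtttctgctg
Cd3e, shared by both probes: AGATCCTCGGATGGTCA

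The 250 bases before the annotated start were searched for letters recognised by families of lymphocyte transcription factors. Promoter windows were held for 7 of the 10 genes, with 2 for Lck, so 8 windows in all, of which 6 belonged to genes kept by the filter and the others to Gzma and Gzmb. The letters searched, on both strands, were AGGAAG (ETS factors), TGTGGT (RUNX factors) and CAGGTG (E proteins). AGGAAG or its complement was in 5 of the 6 windows of kept genes and in 29.5% of all 32851 windows of that length, TGTGGT in 2 of 6 and 14% of all, and CAGGTG in 3 of 6 and 17.2% of all. Over all 8 windows the counts were 5, 4 and 4. These are matches of letters, not binding sites. The 3 windows below are shown for the neighbouring CD3 genes and for the granule gene Nkg7, from RefSeq on GRCm38.p6, written 5′ to 3′ on the strand of the gene, with matches in capitals, none of which overlapped in these windows.
Cd3d, chr9:44981536-44981785, plus strand: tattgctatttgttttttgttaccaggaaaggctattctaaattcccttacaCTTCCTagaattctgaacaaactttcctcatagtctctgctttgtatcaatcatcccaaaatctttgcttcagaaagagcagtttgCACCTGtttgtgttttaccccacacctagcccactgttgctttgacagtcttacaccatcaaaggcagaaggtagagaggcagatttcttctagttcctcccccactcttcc
Cd3g, chr9:44980432-44980681, minus strand: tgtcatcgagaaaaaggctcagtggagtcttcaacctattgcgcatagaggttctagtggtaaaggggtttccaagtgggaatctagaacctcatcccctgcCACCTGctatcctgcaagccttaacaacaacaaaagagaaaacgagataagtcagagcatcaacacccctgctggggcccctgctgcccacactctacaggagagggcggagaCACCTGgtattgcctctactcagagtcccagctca
Nkg7, chr7:43436888-43437137, plus strand: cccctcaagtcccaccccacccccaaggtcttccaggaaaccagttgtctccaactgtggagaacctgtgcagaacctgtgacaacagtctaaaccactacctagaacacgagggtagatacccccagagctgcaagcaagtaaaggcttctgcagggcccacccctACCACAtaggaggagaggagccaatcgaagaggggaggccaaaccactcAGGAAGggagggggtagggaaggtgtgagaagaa
The Cd3d window held 1 ETS match and 1 E protein match, the Cd3g window 2 E protein matches, and the Nkg7 window 1 ETS and 1 RUNX match.

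Between 17253 and 19774 of the 45281 gene probes were detected per array (38.1% to 43.7%), and median negative control signals lay between 76.3 and 93.6. Levels are log2 intensities after background correction from negative controls and quantile normalization, and on this scale the lowest level of a detected probe lay between 4.48 and 4.65 on the 9 arrays. A level is compared across arrays for the same probe and not between probes. Arrays within a group are named in the order of the replicate numbers given above.

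The CD3 chains were detected on all 6 arrays of aHSCs from injured liver and were at or near background in the cultured cells. Cd3d, which encodes the delta chain, had levels of 6.72, 6.66 and 7.29 in WT1-high cells, 6.62, 6.96 and 7.27 on WT1-intermediate arrays, and 4.29, 4.39 and 4.43 on cultured WT1-negative arrays, where it was detected on no array. Every array from liver lay above every array from culture, and the WT1-high and WT1-intermediate arrays overlapped. Against the background limit of the cultured arrays, the level of Cd3d was at least 4.86-fold higher for WT1-high cells and, for WT1-intermediate cells, at least 5.08-fold higher. These bounds set the group mean against the dimmest detectable level, because a probe that is not detected has only an upper limit.

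Cd3g, the gamma chain, had levels of 6.83, 7.18 and 7.69 on WT1-high arrays, 6.80, 7.51 and 7.92 on WT1-intermediate arrays and 4.71, 4.36 and 4.52 on the cultured WT1-negative arrays. It was detected on 1 of the 3 cultured arrays, replicate 3. The log2 difference from WT1-negative was 2.71 ± 0.28 (SE of the fit over 9 arrays) for WT1-high and 2.88 ± 0.28 for WT1-intermediate, which are 6.53-fold and 7.37-fold. The cultured mean, 4.53, lay within the range of the background limits of the 9 arrays and below those of the cultured arrays (4.55 to 4.63). These folds are therefore set against a group at background.

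Cd3e, the epsilon chain, gave 6.66, 6.64 and 7.23 on WT1-high arrays, 6.52, 6.92 and 7.14 on WT1-intermediate arrays and 4.20, 4.37 and 4.20 on the cultured WT1-negative arrays by its brighter probe. Neither Cd3e probe was detected in culture, and the bounds were at least 4.72-fold (WT1-high) and at least 4.77-fold (WT1-intermediate). The other probe gave smaller bounds, at least 3.50-fold and at least 3.56-fold, and placed the groups in the same order.

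Lck and Cd2 were also higher on every liver array than on any cultured array. Lck was the only member gene detected on all 9 arrays, at 6.88, 6.80 and 7.01 on WT1-high arrays, 6.56, 6.94 and 6.94 on WT1-intermediate arrays and 5.20, 5.17 and 4.74 on the cultured WT1-negative arrays. Its levels in liver cells were 3.63-fold (WT1-high) and 3.43-fold (WT1-intermediate) those of the cultured cells. These folds are set against a group near background, with cultured replicate 14 at 4.74 and its background limit at 4.63. Cd2 had levels of 5.70, 5.40 and 5.84 on WT1-high arrays, 5.37, 5.40 and 5.77 on WT1-intermediate arrays and 4.42, 4.39 and 4.29 on the cultured WT1-negative arrays, where it was not detected. It was at least 2.06-fold and at least 1.88-fold higher in the corresponding liver groups.

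**Figure D1:**
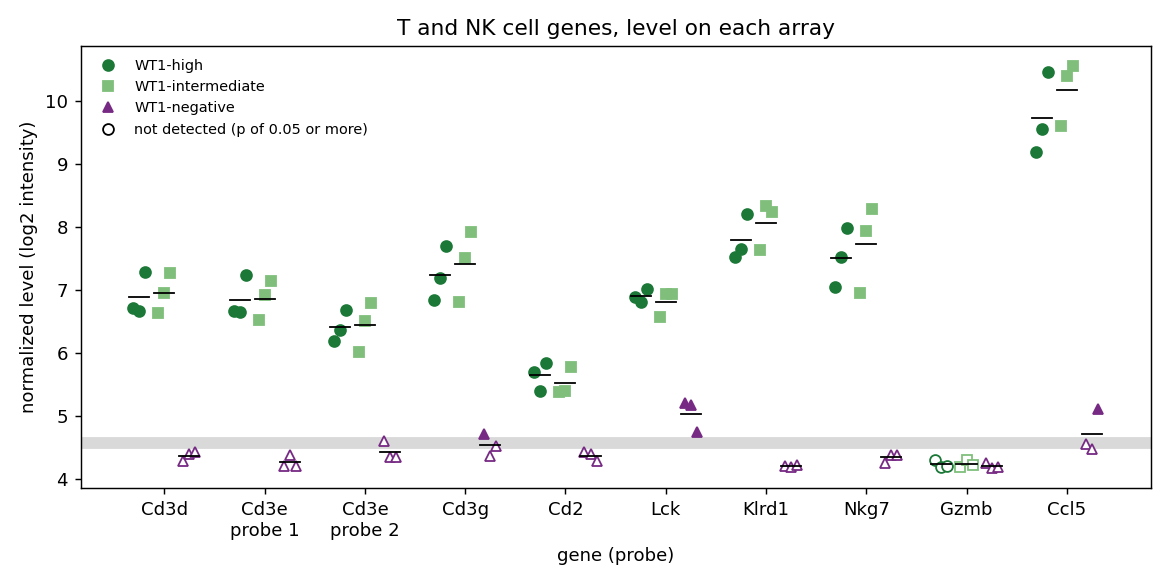
Normalized level (log2 intensity, vertical axis) of each of the 10 probes on each of the 9 arrays, with WT1-high as circles, WT1-intermediate as squares and WT1-negative as triangles, open where the probe was not detected, and a line at the mean of 3 arrays. The grey band spans the lowest detectable levels of the 9 arrays (4.48 to 4.65). Circles and squares overlap for every gene, and all triangles lie lower except for Gzmb, which is undetected throughout.

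The NK receptor subunit and the granule gene were likewise detected on all liver arrays and on no cultured array. Klrd1 had levels of 7.52, 7.65 and 8.21 in WT1-high and 7.62, 8.33 and 8.24 in WT1-intermediate cells, against 4.20, 4.18 and 4.22 in WT1-negative cells. Its bounds were at least 9.12-fold (WT1-high) and at least 11.0-fold (WT1-intermediate). Nkg7 had levels of 7.04, 7.52 and 7.97 on WT1-high arrays, 6.96, 7.94 and 8.28 on WT1-intermediate arrays and 4.25, 4.38 and 4.38 on the cultured WT1-negative arrays. The bounds were at least 7.49-fold and at least 8.70-fold.

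Granzyme B did not follow. The Gzmb probe had levels between 4.17 and 4.30 on all 9 arrays and was detected on none, so it has no fold change, and a low level of the transcript was not detectable by this probe. The chemokine Ccl5 was detected on all liver arrays. Its levels were 9.19, 9.55 and 10.45 on WT1-high arrays, 9.59, 10.39 and 10.55 on WT1-intermediate arrays and 4.55, 4.47 and 5.10 on the cultured WT1-negative arrays. These are differences of 5.02 ± 0.33 and 5.47 ± 0.33 on the log2 scale (SE of the fit), or 32.5-fold and 44.4-fold, with the probe detected on 1 of the 3 cultured arrays, replicate 14.

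**Figure D2:**
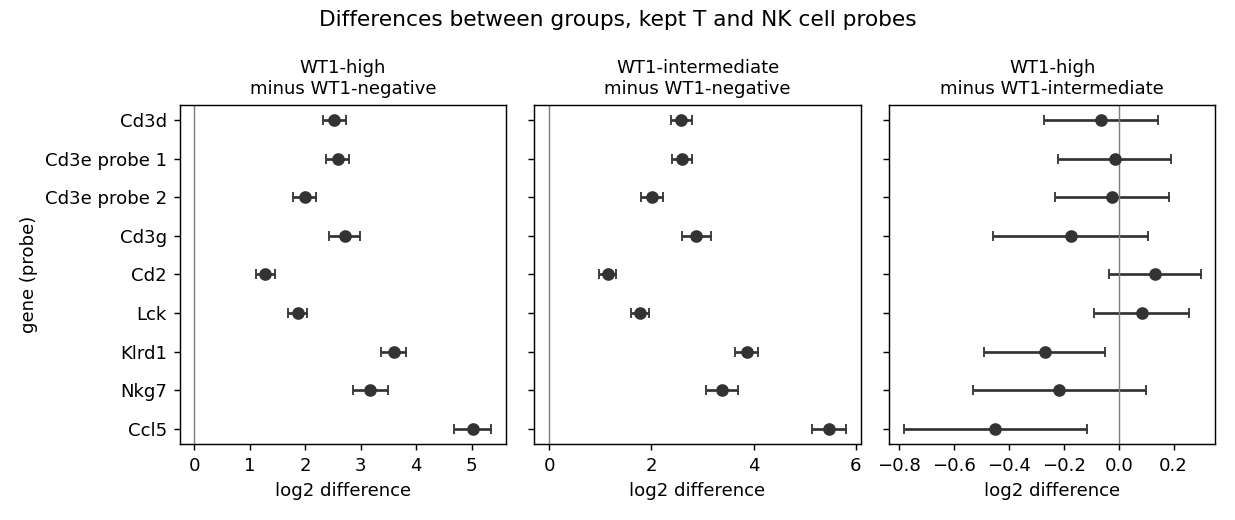
Log2 difference (horizontal axis, a separate scale in each panel) of the 9 kept probes between groups, with bars of ± 1 SE from the linear model over 9 arrays. All points of the first 2 panels lie above 1, whereas those of the third lie between -0.45 and 0.13.

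All 8 kept genes had WT1-high and WT1-intermediate arrays above all WT1-negative arrays. Over all 20573 probes tested, 30.7% did so for WT1-high and 28% for WT1-intermediate. The genes had been chosen on these contrasts, and all but Lck passed the filter only through the liver arrays, so nothing is read from this count. The median log2 difference over the 8 genes was 2.65 (WT1-high) and 2.74 (WT1-intermediate), beside -0.10 and -0.13 over all probes. Both comparisons share the 3 WT1-negative arrays.

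Between the WT1-high and WT1-intermediate groups every member had overlapping arrays. The log2 differences, as WT1-high minus WT1-intermediate, ran from -0.45 ± 0.33 (SE) for Ccl5 to 0.13 ± 0.17 for Cd2, with a median of -0.12 beside 0.05 over all probes. Over all probes, 20.1% did not overlap between these groups, and no member was among the 3.55% of probes called (0.904% higher, 2.64% lower). The direction depended on the scaling between arrays. With median scaling in place of quantile normalization the member median was 0.51, and the median of all probes also moved, to 0.45. Within the 3 pairs of arrays from the same animals (replicates 1 and 1, 8 and 8, 29 and 30), Ccl5 differed by -0.40, -0.84 and -0.10 and Klrd1 by -0.10, -0.68 and -0.03. These 2 genes were lower in WT1-high cells in all 3 pairs and Cd2 was higher in all 3, whereas the other 5 genes went both ways. Under median scaling no member was lower in all 3 pairs and 6 of 8 were higher in all 3, and under cyclic loess 1 was lower (Ccl5) and 1 higher (Cd2).

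The level of the members varied between replicates within both liver groups. Standardised over the 6 arrays from liver and averaged over the 8 genes, the levels were -0.65, -0.59 and 0.98 in WT1-high replicates 1, 8 and 29, and -1.09, 0.36 and 1.00 in WT1-intermediate replicates 1, 8 and 30. WT1-high replicate 29 was the highest of its group for 8 of 8 genes and WT1-intermediate replicate 30 for 7 of 8, the exception being Klrd1. Of all 14558 probes detected on these 6 arrays, 16.6% had both replicates highest. The order was set in part by the scaling. Under median scaling WT1-intermediate replicate 30 was highest for 0 of 8 genes and replicate 8 for 8 of 8, and WT1-high replicate 29 was highest for 4 of 8. In the deposited intensities less the median negative control, replicate 8 was highest for 7 of 8 genes among WT1-high and for 8 of 8 among WT1-intermediate arrays. WT1-intermediate replicate 1 was lowest in its group for 8 of 8 genes after quantile normalization and 6 of 8 under median scaling. Over the 28 pairs of members, the correlation across these 6 arrays ran from 0.32 to 0.99 with a median of 0.86, a description of points that share arrays and normalization.

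Other genes of the same lineages were then examined in 7 lists of companion genes, of which 111 were matched to a probe and 80 passed the filter. Of those 80, limma's moderated test called 57 between WT1-high and WT1-negative cells, with 39 higher and 18 lower, beside 59.6% of all probes (26.5% higher and 33.1% lower). For WT1-intermediate against WT1-negative, 54 were called, 40 higher and 14 lower, beside 58% of all probes (24.4% higher and 33.6% lower). The median log2 difference of the 80 genes was 0.38 and 0.45, beside -0.10 and -0.13 over all probes. Among the companions, 23 were detected on every liver array and no cultured array, so they passed the filter through liver alone. With fewer cultured than liver arrays, the filter favoured higher calls. The counts, medians and adjusted p-values are therefore no test of direction. Without a filter, 36 were called higher and 17 lower (WT1-high), and 38 and 11 (WT1-intermediate). With detection required on all arrays, these were 7 and 16, and 9 and 12. The lists had been drawn up with earlier results of these data known. The same shares of all probes stand beside the counts of each list below, and no list is read as a result by itself. Remarks that other cells also express a gene are background, are not given for every gene, and were not tested here.

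**Figure D3:**
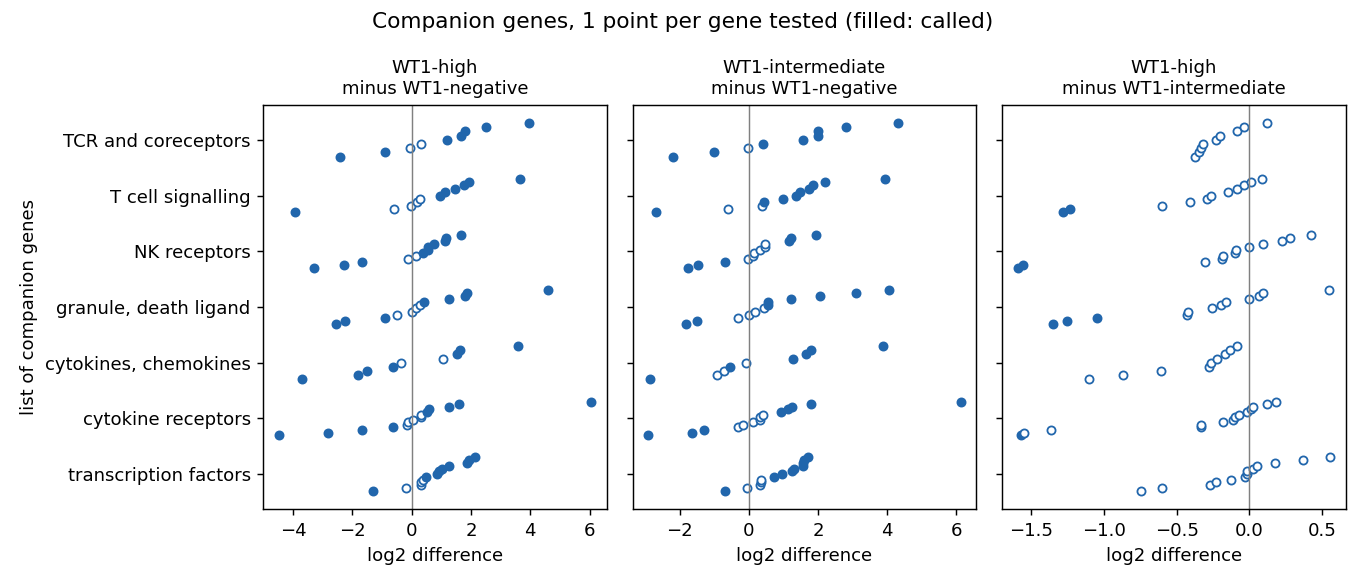
Log2 difference (horizontal axis, a separate scale in each panel) of the 80 companion genes tested, 1 point per gene in 7 lists, filled where the adjusted p was under 0.05. In the first 2 panels each list holds called genes on both sides of 0, and in the third the 8 called genes all lie below it.

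Among genes of the T cell receptor complex and coreceptors, 5 of 9 tested rose and 2 fell in WT1-high, and 6 rose and 2 fell in WT1-intermediate, against WT1-negative cells. Cd8b1, the beta chain of the CD8 coreceptor, was not detected in culture and exceeded the background limit there at least 12.7-fold (WT1-high) and at least 16.1-fold (WT1-intermediate) (adjusted p = 2.53e-07 and 1.73e-07, limma). The inhibitory receptor Ctla4 was at least 4.96-fold and at least 6.17-fold higher (adjusted p = 5.59e-06 and 2.86e-06, limma). Cd6, a surface receptor of T cells, was at least 2.64-fold higher by its WT1-high mean, and the costimulatory receptor Cd27 rose by 2.00 ± 0.26 (log2, SE) in WT1-intermediate cells. The genes that fell were Cd28 (-2.41 ± 0.22 and -2.18 ± 0.22), a costimulatory receptor, and Thy1 (-0.89 ± 0.21 and -1.01 ± 0.21), which fibroblasts also express. Several genes that define T cells were not detected on any array, namely Cd4, Cd8a and the receptor constant region Trac. Cd247, the zeta chain, was detected on 2 of 6 liver arrays and 1 of 3 cultured arrays, with a log2 difference of -0.06 ± 0.17 and -0.02 ± 0.17.

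Of 11 T cell signalling genes tested, 6 rose (WT1-high) or 8 rose (WT1-intermediate), and 1 fell in each. The adaptors Sh2d2a (at least 9.84-fold in WT1-high) and Lat (at least 3.03-fold and 3.63-fold) were detected on every liver array and on no cultured array. Zap70, the kinase recruited to phosphorylated CD3 chains, had bounds of at least 2.29-fold (WT1-high) and at least 2.16-fold (WT1-intermediate) (adjusted p = 0.000870 and 0.00138, limma). Tnfaip8l2 fell by 3.92 and 2.70 on the log2 scale.

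Of 12 NK cell receptors and adaptors tested, 7 rose and 3 fell in WT1-high cells (83.3% called, beside 59.6% of all probes). In WT1-intermediate cells 3 rose and 3 fell (50%, beside 58% of all probes). The lectin receptors Klre1 (at least 2.52-fold and 3.12-fold) and Klrb1b (at least 1.75-fold and 1.87-fold) and the receptor Cd160 (at least 1.96-fold and 1.97-fold) were higher. The signalling adaptors Fcer1g (-3.30 ± 0.26 and -1.75 ± 0.26) and Tyrobp (-2.28 ± 0.24 and -0.69 ± 0.24), which myeloid cells share, and Klra3 (-1.66 ± 0.27 and -1.48 ± 0.27) were lower. Klrb1c, known as NK1.1, was detected on 5 of 6 liver arrays and 1 of 3 cultured arrays, and Klrk1 on 3 of 6 and on none. Ncr1, a receptor typical of NK cells, was detected on no array.

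Of 12 cytotoxic granule genes tested, 5 rose and 3 fell in WT1-high cells (66.7% called, beside 59.6% of all probes). In WT1-intermediate cells 6 rose and 2 fell (66.7%, beside 58% of all probes). Prf1, the pore-forming perforin, had mean levels of 7.49 ± 0.42 (SD, n = 3) on WT1-high arrays, 8.74 ± 0.43 on WT1-intermediate arrays and 5.63 ± 0.34 on cultured arrays, and rose by 1.86 ± 0.27 and 3.11 ± 0.27 against the latter. Serpinb6b, an inhibitor of serine proteases, rose by 4.60 ± 0.18 and 4.06 ± 0.18, and Ctsw, a protease of cytotoxic lymphocytes, by 1.81 ± 0.24 and 2.07 ± 0.24. The lysosomal genes Ctsc (-2.56 ± 0.20 and -1.51 ± 0.20) and Lamp1 (-2.23 ± 0.15 and -1.81 ± 0.15), which many cell types express, fell. Srgn, the granule proteoglycan, fell in WT1-high cells by its brightest probe (-0.92 ± 0.27), and its other probes gave a call in the opposite direction.

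Of 9 secreted factors tested, 3 rose and 4 fell in WT1-high, and 4 rose and 2 fell in WT1-intermediate cells. The lymphocyte chemokine Xcl1 was at least 9.33-fold and 11.3-fold higher (adjusted p = 6.17e-06 and 4.44e-06, limma), lymphotoxin beta (Ltb) at least 2.48-fold and 2.79-fold, and interferon gamma (Ifng) at least 2.32-fold and 2.54-fold. These 3 were detected on all liver arrays and on no cultured array. Ccl3 (-3.71 ± 0.34 and -2.85 ± 0.34), a chemokine that macrophages also make, fell in both groups. Ccl4 (-1.81 ± 0.32) and Tnf (-1.52 ± 0.38), made by macrophages too, fell in WT1-high cells. Il13 fell by 0.55 on the log2 scale in WT1-intermediate cells.

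Of 14 cytokine and chemokine receptors tested, 5 rose in each liver group, and 4 (WT1-high) or 3 (WT1-intermediate) fell. Il18r1, the receptor for interleukin 18, was not detected in culture and was at least 49.9-fold and 52.3-fold higher (adjusted p = 8.69e-10 and 1.15e-09, limma). Cxcr6, a homing receptor of liver T and NKT cells, was at least 2.44-fold and 2.77-fold higher, Ccr7 at least 2.14-fold higher in WT1-high cells, and Il7r rose by 1.25 ± 0.38 in WT1-intermediate cells. Cx3cr1 (-2.84 ± 0.50 and -1.29 ± 0.50), which monocytes and macrophages also carry, fell, and Il21r was detected on all cultured arrays and on no liver array. Il2rb was detected on 5 of 6 liver arrays and on no cultured array.

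Of 13 transcription factors tested, 8 rose and 1 fell in each liver group. Rora rose by 1.88 ± 0.20 and 1.70 ± 0.20 and Id2 by 1.61 ± 0.31 in WT1-intermediate cells, and the WT1-high mean of Gata3 was at least 3.05-fold higher. The factor that fell was Foxp3 (-1.29 ± 0.19 and -0.69 ± 0.19), the factor of regulatory T cells, whose probe was detected on all 9 arrays. Tbx21 and Eomes, the T-box factors of cytotoxic lymphocytes, were each detected on 3 of 6 liver arrays and on none in culture.

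Of 111 companion genes with a probe, 23 (20.7%) were detected on all 6 liver arrays and no cultured array, as were 2.21% of all gene probes. These shares are unlike, since each companion had its brightest probe, while 18241 of the 45281 gene probes were detected on no array. The pattern was not particular to T and NK cell genes. It held for 5 of 9 mesothelial, 3 of 10 hepatocyte, 2 of 15 macrophage and 1 of 16 pan-leukocyte genes. A further 30 companions were detected on all 9 arrays, 21 on no array and 1 in culture alone, and 36 had other patterns. The 5 members with this pattern were Cd3d, Cd3e, Cd2, Klrd1 and Nkg7, from the pattern on which the list had been chosen. Of the 23 companions, 13 had WT1-high replicate 29 and WT1-intermediate replicate 30 both highest in their groups after quantile normalization. Of all probes detected on the 6 liver arrays, 16.6% did so. For the members this order depended on the scaling, and for the companions other scalings of the order were not run.

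Between WT1-high and WT1-intermediate cells, 8 of the 80 companion genes were called, beside 3.55% of all probes (0.904% higher and 2.64% lower), and all 8 were lower in WT1-high. Among them were Tyrobp (-1.59 ± 0.24), Fcer1g (-1.55 ± 0.26), Srgn (-1.35 ± 0.27), Lcp2 (-1.28 ± 0.25), Prf1 (-1.25 ± 0.27), Tnfaip8l2 (-1.23 ± 0.17) and Ctsc (-1.05 ± 0.20), on the log2 scale with SE. Several of these are shared with myeloid cells, and Prf1 is the gene of those named most closely tied to cytotoxic lymphocytes. With the replicate number as a block, pairing the liver arrays that came from 3 animals, 14 were called, all lower. Under median scaling no gene was called lower and 3 were called higher. Without WT1-high replicate 29, or without WT1-intermediate replicate 1, 4 were called.

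Markers of other cell types also moved between the groups, in either direction. Beside the calls given in this and the next paragraph, 26.5% of all probes were called higher and 33.1% lower in WT1-high against the cultured cells. For WT1-intermediate these shares were 24.4% and 33.6%, and between the liver groups 3.55% were called. The summed intensity of the 9 members with a probe was 1264 to 2521 on WT1-high arrays, 1407 to 2704 on WT1-intermediate arrays and 54.4 to 57.7 on cultured arrays, the last with 1 or 2 of 9 detected. Sums of the companion lists went different ways. NK receptors summed to 1560 to 2147, 3398 to 6669 and 13219 to 14326 in the same order, highest in culture. Granule genes (12051 to 13526 on cultured arrays) and secreted factors (9282 to 13194) were also highest there. Transcription factors summed higher on every liver array, and the other lists overlapped between liver and culture. A sum follows its brightest genes, such as Fcer1g among the NK receptors. The summed intensity of the 15 macrophage genes was highest in culture, from 2885 to 5562 (WT1-high), through 12801 to 18040 (WT1-intermediate), to 44644 to 48971 (WT1-negative). Of these 15, the WT1-high arrays detected 12 to 14, the WT1-intermediate arrays 14 and the cultured arrays 11 or 12. Gene by gene the macrophage list was mixed against the cultured cells. Of 14 tested, 1 rose and 9 fell in WT1-high (median log2 difference -1.50), and 5 rose and 5 fell in WT1-intermediate (median 0.20). Between the liver groups 12 of the 14 were called, all with WT1-high below WT1-intermediate, and 7 under median scaling. The 16 pan-leukocyte genes summed to 7196 to 10217, 12844 to 21905 and 21933 to 22339. Ptprc, which encodes the leukocyte antigen CD45 and was chosen after its values were seen, was detected on all 6 liver arrays and on no cultured array. It was the only 1 of the 16 with this pattern, and 13 of them were detected on all 9 arrays. Of 14 tested against the cultured cells, 1 was called higher and 9 lower in WT1-high, and 5 higher and 5 lower in WT1-intermediate. B cell genes summed to 262 to 406, 527 to 601 and 630 to 1198, with 6 to 8, 5 to 6 and 4 of 10 detected. Of 7 B cell genes tested against the cultured cells, 3 were called higher and 3 lower in WT1-high (median log2 difference 0.25). In WT1-intermediate 2 were called higher and 2 lower (median 0.25).

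The sums of the next 5 lists, like that of the members, were higher on every liver array than on any cultured array. Hepatocyte genes summed to 803 to 2982 on WT1-high, 1521 to 2389 on WT1-intermediate and 117 to 152 on cultured arrays. Of 6 hepatocyte genes tested, 6 were called higher in WT1-high (median log2 difference 2.60) and 5 in WT1-intermediate (1.94) against the cultured cells. All 9 mesothelial genes were called higher in both liver groups (medians 6.95 and 6.33), with sums of 29814 to 36303, 17698 to 25256 and 73.8 to 119. Neutrophil genes summed to 1056 to 2294, 1746 to 2901 and 302 to 609, with 3 of 9 called higher and 2 lower in WT1-high and 5 higher and 1 lower in WT1-intermediate. Dendritic cell genes summed to 1082 to 1463, 1394 to 2730 and 757 to 928, with 2 of 7 called higher and 1 lower in WT1-high and 3 higher and 1 lower in WT1-intermediate. Endothelial genes summed to 963 to 1313, 1673 to 2150 and 565 to 810. Of 10 endothelial genes tested, 3 were called higher and 4 lower in WT1-high (median log2 difference -0.44), and 4 higher and 4 lower in WT1-intermediate (0.44). The part of these cell types in the levels of the members was not tested.

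**Figure D4:**
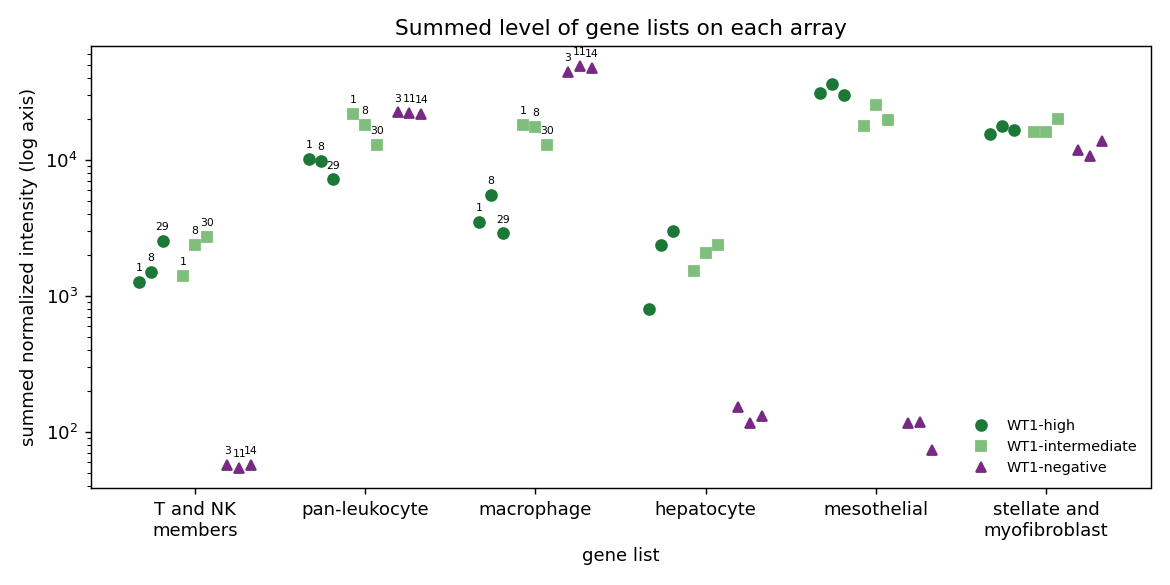
Summed normalized intensity (linear values on a log axis, background offset removed) of 6 gene lists on each array, with replicate numbers beside the points of the first 3 lists. The T and NK cell members are lowest in WT1-negative cells (54.4 to 57.7), where the macrophage list is highest (44644 to 48971).

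The labelled cell type was checked by its markers. Of 12 stellate and myofibroblast genes the WT1-high arrays detected 9 to 11, the WT1-intermediate arrays 10 and the cultured arrays 9, with sums of 15490 to 17767, 15971 to 20049 and 10757 to 13745. Dcn, Acta2 and Col3a1, the brightest of them, were detected on all 9 arrays. The calls were mixed. Of 10 tested against the cultured cells, 4 were called higher and 4 lower in WT1-high, beside 59.6% of all probes called. In WT1-intermediate 4 were called higher and 3 lower, beside 58%. Between the liver groups 2 were higher and 2 lower in WT1-high, beside 3.55%. Gfap, chosen after its values were seen, was detected on none. All 9 mesothelial genes were detected on every liver array, and 2 to 4 in culture.

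The genes most like the members across the 6 liver arrays were sought among 14649 genes by correlation with the mean standardised profile of the 8 kept members, as a description over 6 points that share arrays. The 10 most alike were Lmcd1 (r = 0.99), Cpa1 (0.99), Ang (0.98), Try4 (0.98), Klrb1b (0.98), Sncg (0.97), EG240038 (0.97), Dym (0.97), Mtrr (0.97) and Ibrdc3 (0.97). Klrb1b is an NK cell receptor and stands in a companion list, and Cpa1 and Try4 encode digestive enzymes of the exocrine pancreas. Try4 had levels of 4.31, 4.40 and 6.39 in WT1-high and 4.19, 5.49 and 6.72 in WT1-intermediate cells, so it too was highest in replicates 29 and 30. With all 9 arrays 0 of these 10 remained among the 10 most alike, with Spearman's correlation 1, under median scaling 1 and under cyclic loess 2.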

How the data were processed

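The authors deposited summary probe profiles made in BeadStudio. Each held 1 linear, unnormalized intensity for a probe, with a detection p-value deposited for each probe and the number of beads among the other columns of the deposited tables. The column labelled 29 in the WT1-intermediate group was taken as replicate 30, the only array of that group left, and its intensities equalled those of the joined table (largest difference 0). Its detection p was computed from its own negative controls, a computation that put every probe of the other 8 arrays on the same side of 0.05 as the deposited value. The members and lists were chosen with earlier results of these data known.

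The deposited intensities went through limma 3.58.1 (R 4.3.3) after the outline of the study's methods: neqc (normexp correction from 936 negative controls, offset 16, quantile normalization, log2), then a linear model with 3 groups over 9 arrays. The filter, which the study does not state, required detection (p under 0.05) on 3 or more arrays and left 20573 probes. Adjusted p-values are Benjamini-Hochberg over all kept probes, with calls made below 0.05. The linear model and its calls were tested on simulated log2 values, and the background correction, normalization, filter and choice of probe were not. The brightest probe stood for its gene. Named companions were the 3 largest called differences per list, direction and comparison, and a fixed set of defining genes, of which some are counted but not reported here by name. Symbols are those of the deposited annotation. The number of arrays limits the precision, and the study counts animals (in vivo) or separate cell isolations (in vitro) as replicates.

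Pairing was checked by correlating deviations from group means across probes. The study states 3 animals for the liver arrays, and replicates 1 and 1 gave 0.35, 8 and 8 gave 0.34, and 29 and 30 gave 0.47, with the other combinations between -0.39 and 0.03. The study's model has no block, so blocks were run as alternatives, beside other background, scaling, filter and weighting choices and leaving out each array.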

Additional observations from a re-analysis of the deposited data

How the results depend on the processing

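The member genes kept their direction against WT1-negative cells under every alternative run, apart from Gzmb, which was not detected on any array. The median log2 difference of the members was 2.65 (WT1-high) and 2.74 (WT1-intermediate) and fell to 1.03 and 1.09 with no background correction, 1.59 and 1.69 with an offset of 50, and 1.86 and 1.78 where detection on all 9 arrays was required, which left Lck alone. It was 2.90 for WT1-high under cyclic loess and 2.25 for WT1-intermediate under median scaling. Leaving out each array gave 2.45 to 2.78 (WT1-high) and 2.62 to 3.02 (WT1-intermediate). Between the liver groups it was 0.51 under median scaling and -0.35 to 0.09 with an array left out. Companion genes called numbered 23 and 21 against WT1-negative cells where detection on all 9 arrays was required, since fewer genes were tested, and 48 to 59 (WT1-high) and 47 to 58 (WT1-intermediate) with an array left out. Between the liver groups 8 were called, against 3 under median scaling, all higher, 3 without a filter, and 4 to 9 with an array left out. With the replicate block, 14 (fixed, over the 6 liver arrays, with 29 and 30 paired) and 13 (random, by label number) were called, and the counts against WT1-negative cells were 57 and 55. Other scalings of the replicate order, of the differences within pairs and of the genes most alike were chosen after seeing the data. The causes of these changes were not tested where no reason is given. Signal over background limits every kept member in culture, and Gzmb throughout. In culture Cd3d, Cd3e, Cd2, Klrd1 and Nkg7 were detected on no array and Cd3g and Ccl5 on 1 of 3. Lck was detected on all 3 but lay near the background limit.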
